A study of Mus musculus with 6 samples.

Results

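The 67 clustered histone genes described here are those whose symbol starts with Hist1h, Hist2h, Hist3h or Hist4h, out of 21851 genes listed in every library. They were taken by symbol alone, with no use of expression, and were grouped by class from the letters of the symbol: 6 H1 genes, 18 H2A, 18 H2B, 12 H3 and 13 H4. Expression was measured by RNA sequencing in 6 libraries of hematopoietic stem cells (HSCs), the blood-forming stem cells, sorted from the bone marrow of wild-type mice. The irradiated group (IR) held 3 libraries from mice given ionizing radiation, and the control group (Ctrl) held 3 libraries from mice labelled as controls. The series is about premature aging of HSCs. By the labels, the sort kept cells without lineage markers that carried Sca-1, c-Kit and CD150 and lacked Flt3 and CD48. Dose, time after exposure, age and the number of mice behind a library are not given in these sources. The labels number the libraries as replicates without tying them to separate mice, so the p-values reflect the spread among the libraries alone, and that spread may be technical.

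Nucleosomes are built from the core histones H2A, H2B, H3 and H4, and H1 binds the linker DNA between them. The clustered genes supply the bulk of these proteins while DNA is copied, and their transcription and mRNA stability are tied to S phase. Their mRNAs usually have no poly(A) tail: they end just after a short stem-loop that binds the protein SLBP. Some of these genes also give polyadenylated transcripts that run past the stem-loop, mostly in cells that have left the cell cycle. The library kit selected polyadenylated RNA, so the levels below cover the histone RNA that passed this selection and not the whole histone mRNA pool. Tailed transcripts and carried-over tail-less ones cannot be told apart in these values.

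RNA of the sort markers did not all follow the gate. Cd48 stood at 343 to 359 FPKM (fragments per kilobase of transcript, scaled to the depth of the library) in IR libraries and 396 to 403 FPKM in Ctrl libraries, and Flt3 at 64.4 to 67.2 FPKM in IR and 124 to 127 FPKM in Ctrl, although the gate was negative for both. Slamf1, which encodes CD150, was at 4.58 to 5.46 FPKM in IR and 3.14 to 3.95 FPKM in Ctrl. Mpo, a granule enzyme gene of the myeloid lineage, was at 2660 to 2674 FPKM in IR and 2243 to 2261 FPKM in Ctrl. Of the gate-positive markers, Kit (c-Kit) was at 94.8 to 97.8 FPKM in IR and 95.5 to 98.5 FPKM in Ctrl. Ly6a (Sca-1) was at 152 to 162 FPKM in IR and 198 to 208 FPKM in Ctrl. The RNA therefore went with the labelled gate in Kit and Ly6a and against it in Cd48, Flt3 and Slamf1. Mpo is not a gate marker. "HSC" below is the label of the libraries. The summed FPKM of 8 granulocytic marker genes was 6066 to 6226 in IR and 5294 to 5329 in Ctrl. That sum was carried by Mpo, Elane, Ctsg and Prtn3, which rose, while Ngp, S100a9, Camp and S100a8 fell. The sum of 6 megakaryocytic genes was 172 to 187 in IR and 142 to 145 in Ctrl. For 9 lymphoid genes, with Cd3g at 0, the sum was 889 to 892 in IR and 1057 to 1084 in Ctrl. The 9 HSC and gate markers summed to 1239 to 1254 in IR and 1491 to 1510 in Ctrl. Most of that sum was Cd34 (means 550 in IR, 642 in Ctrl) and the gate-negative Cd48 (352, 400) and Flt3 (65.7, 125). Of the 9, Slamf1 rose (11.1%, against 25.8% of all genes tested) and 6 fell (66.7%, against 28.9%). Kit and Mecom did not pass the test. The sum of 4 monocytic genes was 610 to 623 in IR and 695 to 699 in Ctrl, that of 9 erythroid genes 552 to 558 in IR and 545 to 549 in Ctrl, and that of 5 mast cell and basophil genes 323 to 331 in IR and 265 to 268 in Ctrl. Of 8 erythroid genes tested, 4 rose and 4 fell, with log2 fold changes from -1.04 for Hbb-bs to 1.23 for Car1. None of these marker sums overlapped between groups. The sums of 4 endothelial genes (39.7 to 42.9 in IR, 52.7 to 54.9 in Ctrl) and 4 stromal genes (2.79 to 3.07 in IR, 4.22 to 4.88 in Ctrl) were small, with Cdh5, Kdr, Lepr and Col1a1 under 0.5 FPKM. Their part in the histone differences was not tested. Cell make-up and RNA per cell cannot be told apart in bulk libraries. Each library rested on about 14300000 to 16300000 fragments, estimated from the step between low values.

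The clustered histone genes lie in 4 places of the mouse genome, build GRCm38. The Hist1 cluster on chromosome 13 (chr13:21715763-23934851) holds 54 of the 67 genes and gave 91.4% of their summed FPKM. The Hist2 cluster on chromosome 3 holds 10 genes and gave 7.64%. The 2 Hist3 genes on chromosome 11 gave 0.31%, and the single Hist4 gene on chromosome 6 gave 0.606%.

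The 3′ stem-loop is the element that sets these mRNAs apart, and it was found in an annotated GENCODE M21 transcript of 44 genes. The search ran downstream of the coding sequence and took a stem of 6 bases on each side of a loop of 4 bases, with the known pyrimidine and purine choices in the stem. The 10 sequences below are from genes whose values are described later, in the order of the classes. Capitals mark the 16 bases of stem, loop and stem, and the positions are those of the capitals in build GRCm38.
Hist1h1c, chr13:23739512-23739527, plus strand: ccaaaaGGCTCTTTTCAGAGCCacca
Hist1h1e, chr13:23621782-23621797, minus strand: cccaaaGGCTCTTTTCAGAGCCaccc
Hist1h2ap, chr13:21833029-21833044, minus strand: aaaaaaGGCTCTTTTCAGAGCCatc
Hist1h2be, chr13:23585531-23585546, minus strand: accaaaGGCTCTTTTCAGAGCCaccc
Hist1h2bh, chr13:23542928-23542943, minus strand: cccaaaGGCTCTTTTCAGAGCCactc
Hist1h3c, chr13:23745047-23745062, minus strand: aaaaaaGGCTCTTTTAAGAGCCacct
Hist1h3g, chr13:23535889-23535904, plus strand: tttaaaGGCTCTTCTTAGAGCCaccc
Hist1h4d, chr13:23581950-23581965, plus strand: accaaaGGCCCTTTTCAGGGCCacta
Hist1h4i, chr13:22040966-22040981, minus strand: cttaaaGGCCCTTTTTAGGGCCacca
Hist1h4n, chr13:21831798-21831813, minus strand: actaaaGGCCCTTTTCAGGGCCatcc

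The stem split the genes by class. All 10 H4 genes with a stem-loop had a stem that opened with GGCCCT and closed with AGGGCC, and the 34 genes of the other classes had GGCTCT and AGAGCC. The commonest form, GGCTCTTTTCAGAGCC, was in 26 genes, and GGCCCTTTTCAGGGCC was in 7 H4 genes. The annotated transcript went on for at least 100 bases past the stem-loop in 22 genes, among them Hist1h1c (840 bases), Hist1h4d (770 bases) and Hist1h2be (1861 bases). In the other 22 it ended within 100 bases, as in Hist1h2ap (3 bases), Hist1h4n (31 bases) and Hist1h3c (74 bases). A poly(A) signal (AATAAA or ATTAAA) lay in the last 50 bases of the longest annotated coding transcript of 17 genes. For 11 genes that transcript holds coding sequence only. Median levels were 8.49 FPKM over the 22 genes with a longer transcript and 10.8 FPKM over the 22 with a short one. Genes with an annotated transcript that ends within 100 bases of the stem-loop were thus present in these poly(A)-selected libraries. Of these, Hist1h2bp also has another, longer annotated transcript of 621 bases. That transcript and the one of Hist1h4h carry a poly(A) signal in the last 50 bases. All 22 reached 1 FPKM in at least 3 libraries, as did 18 of the 22 extended genes. FPKM divides by transcript length, so the medians of shorter and longer transcripts do not compare like with like.

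Many of these genes are near-identical copies, so that reads can fit more than 1 gene. A transcript was cut into all stretches of 100 bases, and the share found in no other gene was taken as unique. The median unique share was 99.6% for H1, 81.0% for H4, 62.6% for H2B, 50.3% for H3 and 35.5% for H2A. Hist1h4d was 100% unique, whereas Hist1h2ap was 7.83% unique and Hist2h2aa2 had no unique stretch. How the authors shared out reads that fit several genes is not given in the sources used here, so the values of single copies are uncertain.

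Spread between libraries of a group was wider at the median for genes with less unique sequence. The coefficient of variation (SD over mean) within a group had a median of 9.57% over the 38 genes that passed the expression filter with at least 50% unique stretches, and 15.01% over the 20 with less. It was highest for Hist1h2ap (76.9%) and Hist1h3b (64.1%) and lowest for Hist1h2ac (0.864%). Over all genes at 20 FPKM or more it had a median of 2.54% in IR and 2.31% in Ctrl. The histone genes were mostly lower than that in level, with a median of 8.10 FPKM over all 67. Some at such levels were still wider: Hist1h4d, 100% unique at a mean of 114 FPKM, had 8.67%, and Hist1h1b, 100% unique at 51.6 FPKM, had 7.57%. Only Hist1h2ac and Hist1h2bb (1.76%) were below the medians over all genes. The median level is also given by unique share. That level was 11.1 FPKM over the 42 genes with at least 50% unique stretches and 6.65 FPKM over the 25 others. Hist1h4j, 81.0% unique and at a mean of 3.22 FPKM, had a spread of 35.1%. How far level or shared sequence set the spread was not tested.

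**Figure D1:**
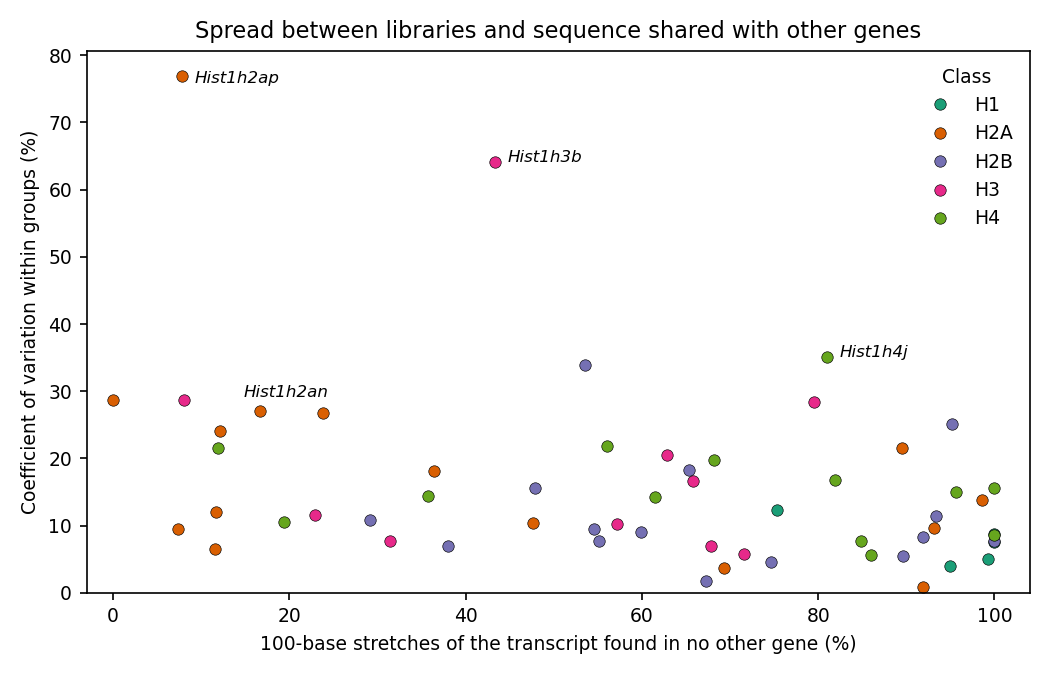
Spread within groups (coefficient of variation in percent, mean of IR and Ctrl, y axis) against the share of 100-base stretches found in no other gene (percent, x axis) for the 58 histone genes that passed the expression filter, 1 point a gene. The widest spreads, Hist1h2ap at 76.9% and Hist1h3b at 64.1%, belong to genes with under 50% unique stretches.

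Summed over all 67 genes, histone RNA was 1034, 1182 and 1168 FPKM in the IR libraries, against 1026, 1078 and 1028 FPKM in the Ctrl libraries. The lowest IR library lay inside the Ctrl range, so the groups overlapped. The means were 1128 ± 81.6 FPKM in IR and 1044 ± 29.6 FPKM in Ctrl (SD, n = 3 each), a ratio of 1.08. Histone RNA was a minor part of every library, at 0.213% to 0.241% of all FPKM in IR and 0.210% to 0.221% in Ctrl. Without Hist1h2ap, the gene with the widest spread, the sums were 1048 ± 52.7 FPKM in IR and 999 ± 1.22 FPKM in Ctrl, a ratio of 1.05 with all IR libraries above all Ctrl libraries. The margin was small: 1019, 1109 and 1017 FPKM in IR, against at most 1000 FPKM in Ctrl. Hist1h2ap was left out after its values were seen. Its near-copy Hist1h2ao, which shares 92.65% of the 100-base stretches of the shorter transcript, stayed in the sum.

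By class, the H1 sum was the one whose groups were apart. It was 175, 192 and 173 FPKM in IR, against 151, 151 and 159 FPKM in Ctrl, a ratio of 1.17. The H3 sum averaged 87.5 ± 6.69 FPKM in IR and 76.7 ± 4.87 FPKM in Ctrl (ratio 1.14), and the H4 sum averaged 282 ± 18.7 FPKM in IR and 261 ± 5.68 FPKM in Ctrl (ratio 1.08). Both overlapped between groups by 1 library. The H2B sum was 291 ± 18.5 FPKM in IR and 284 ± 5.58 FPKM in Ctrl (ratio 1.02), and the groups overlapped widely. The H2A sum was 227, 284 and 351 FPKM in IR, against 267, 294 and 246 FPKM in Ctrl. Its direction rested on Hist1h2ap. Without that gene it was 208 ± 6.77 FPKM in IR and 224 ± 14.3 FPKM in Ctrl, a ratio of 0.929. All IR libraries were then below all Ctrl libraries. The remaining genes included Hist1h2an, a 16.7% unique copy at 10.9 to 13.1 FPKM in IR and 15.3 to 39.2 FPKM in Ctrl. How far the lower sum in IR rested on Hist1h2an was not tested. Without IR replicate 3 the H2A log2 ratio was -0.07, and without IR replicate 2 the H2B log2 ratio was -0.02.

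**Figure D2:**
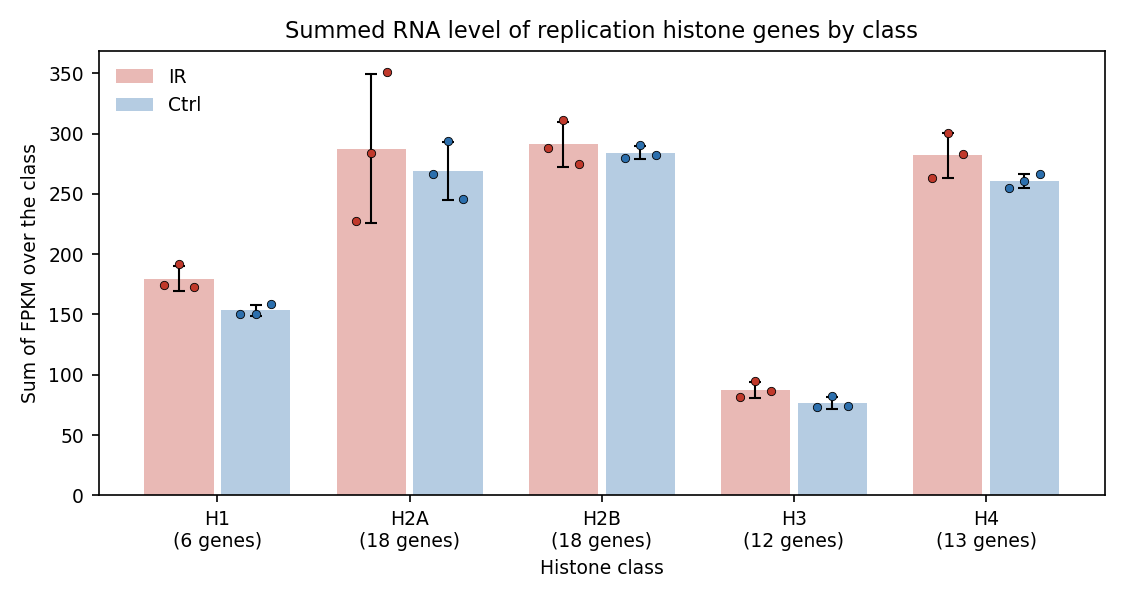
Summed FPKM of each histone class (y axis) in the 6 libraries, IR left of Ctrl. Points are libraries and bars are group means with SD (n = 3 each). The 3 IR libraries lie above the 3 Ctrl libraries for H1 (173 to 192 against 151 to 159 FPKM), while H2A spans 227 to 351 FPKM in IR.

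Gene by gene, 58 of the 67 genes reached at least 1 FPKM in at least 3 libraries and were tested, and 22 of them differed between IR and Ctrl HSCs. These were 37.9% of those tested, against 54.7% of all 10281 genes tested in the same fit. A total of 17 rose in IR, 29.3% against a background of 25.8%, and 5 fell, 8.62% against a background of 28.9%. The share that rose was near the background, and the share that fell was below it. The median log2 fold change was 0.05 over the histone genes and -0.01 over all genes tested. The test was limma on log2(FPKM + 1), 2-sided, with Benjamini-Hochberg adjustment over all genes tested and a threshold of 0.05, and log2 fold changes are IR minus Ctrl on that scale, where the added 1 makes changes at low FPKM look smaller than they were. Of the genes called, the median size was 0.35 for histone genes and 0.23 for all genes. Only genes past the threshold enter these medians, and the smallest size called was 0.155 for histone genes and 0.043 for all genes. The medians therefore do not show that histone genes changed more. All IR libraries were above all Ctrl libraries in 13 of the 58 genes (background 29.1%) and below them in 4 (background 32.5%), together 29.3% against 61.7%.

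**Figure D3:**
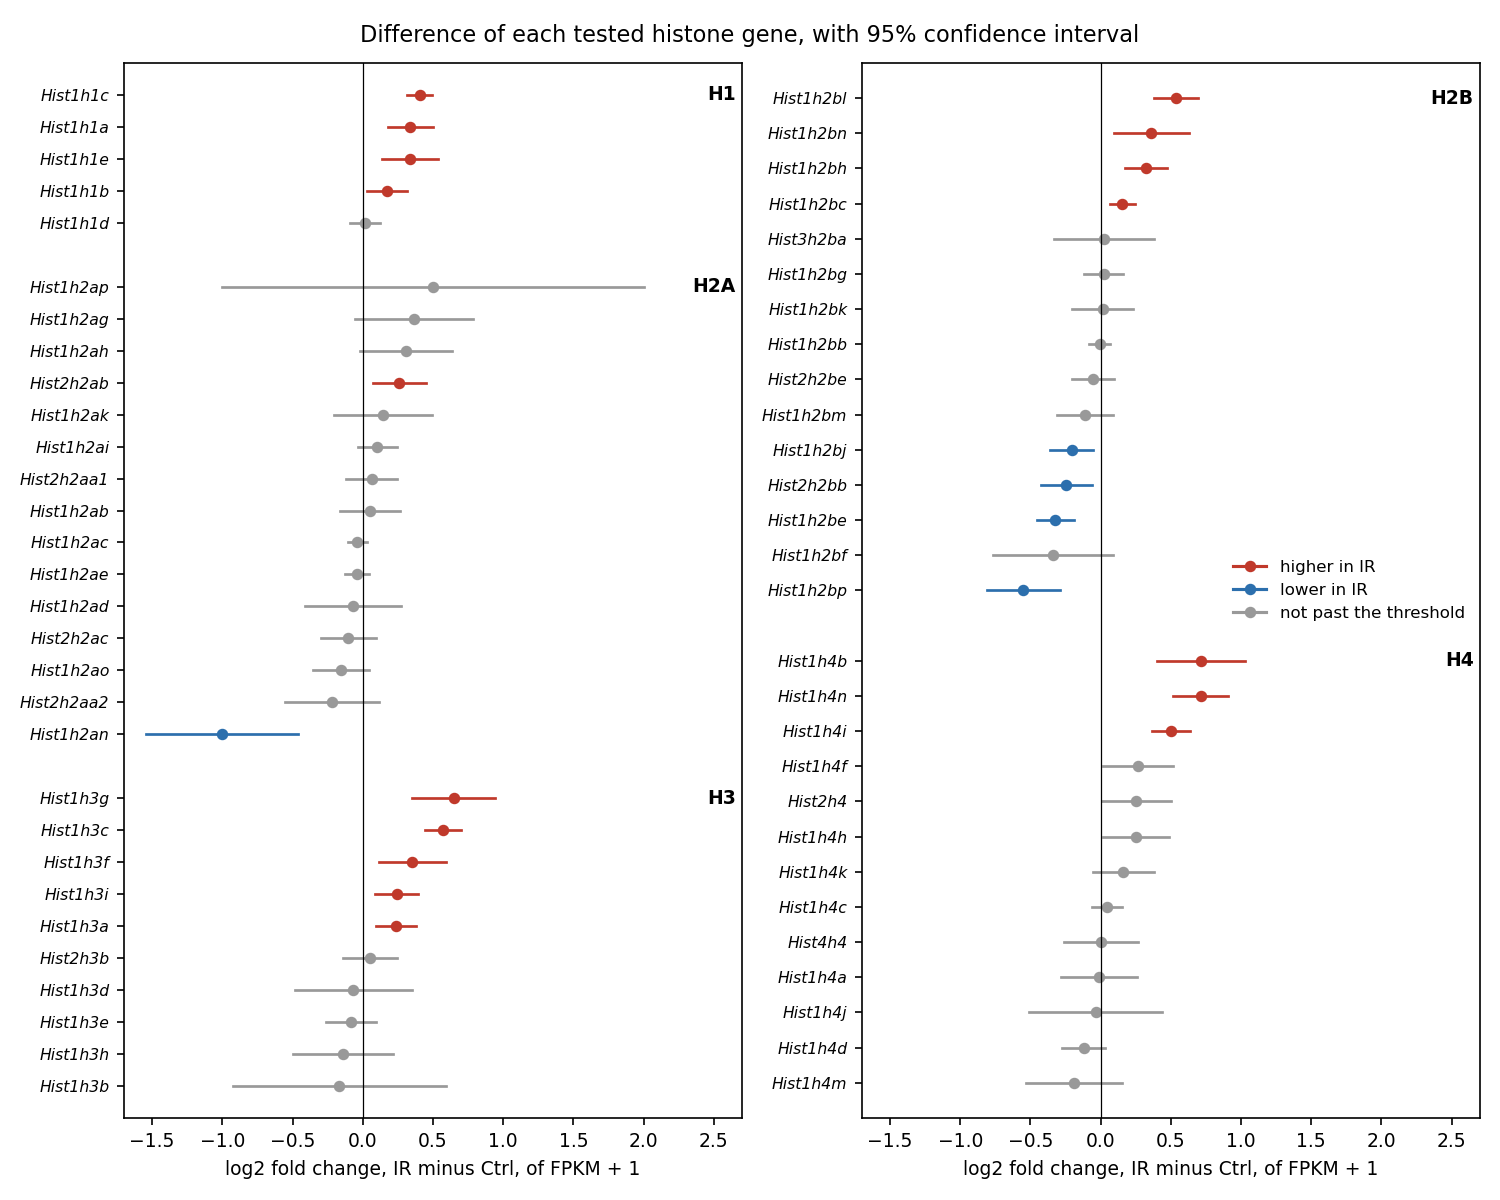
Log2 fold change of FPKM + 1, IR minus Ctrl (x axis), with its 95% confidence interval, for the 58 tested histone genes, by class. Red genes were higher in IR, blue genes lower, and grey genes did not pass the threshold: H1, H3 and H4 have red and no blue genes, and the wide interval at the top of H2A is Hist1h2ap.

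Of the linker histones, 4 of 5 tested H1 genes rose in IR (80%, background 25.8%) and none fell (background 28.9%). Hist1h1c, the H1 gene with the clearest change and one known for its polyadenylated form, was at 49.6, 52.8 and 52.3 FPKM in IR, against 36.7, 39.3 and 40.2 FPKM in Ctrl. All IR libraries lay well above all Ctrl libraries, a log2 fold change of 0.40 (SE 0.0396, limma adjusted p = 1.99e-05). Hist1h1a was at 13.6, 15.1 and 16.8 FPKM in IR, against 10.9, 12.5 and 11.9 FPKM in Ctrl (log2 fold change 0.34, limma adjusted p = 0.00253). Hist1h1e was at 13.0, 16.6 and 13.7 FPKM in IR, against 12.5, 9.98 and 11.2 FPKM in Ctrl (log2 fold change 0.34, limma adjusted p = 0.00992). Neither gene overlapped between groups, although the lowest IR library of Hist1h1e was close to the highest Ctrl library. Hist1h1b had the highest mean of the class, at 56.1, 59.5 and 48.8 FPKM in IR, against 47.8, 46.2 and 51.1 FPKM in Ctrl. Its groups overlapped by 1 library, and its log2 fold change of 0.17 (limma adjusted p = 0.0411) was past the threshold in 2 of 6 fits that left out 1 library, those without IR replicate 3 and without Ctrl replicate 3. Hist1h1d, at 41.3 to 47.7 FPKM in IR and 42.7 to 44.3 FPKM in Ctrl, had a log2 fold change of 0.02 and did not pass the test. Hist1h1t, the H1 gene of spermatocytes, was listed at 0 in all 6 libraries.

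Of the H2A genes, 1 rose and 1 fell among 15 tested, 6.67% each way, below the background of 25.8% higher and 28.9% lower. The number called was 4 without IR replicate 1, IR replicate 3 or Ctrl replicate 1, and 1 without Ctrl replicate 2. Hist2h2ab was at 2.46, 2.01 and 1.91 FPKM in IR, against 1.85, 1.54 and 1.42 FPKM in Ctrl. The groups did not overlap but came within 0.1 FPKM of each other (log2 fold change 0.26, SE 0.0859, limma adjusted p = 0.0257), and the call was lost without IR replicate 1, Ctrl replicate 2 or Ctrl replicate 3. Hist1h2an was at 11.9, 10.9 and 13.1 FPKM in IR, against 39.2, 15.3 and 25.7 FPKM in Ctrl. All IR libraries were below all Ctrl libraries, which themselves spread widely, and the log2 fold change was -1.005 (SE 0.243, limma adjusted p = 0.00567). Its transcript was 16.7% unique, so its level also depends on how reads were shared with its copies.

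Hist1h2ap, the H2A gene with the highest mean, was at 15.4, 72.6 and 151 FPKM in IR, against 26.8, 80.5 and 27.8 FPKM in Ctrl. No difference between groups could be read from values that spread this far within each (log2 fold change 0.50, limma adjusted p = 0.553). Hist1h2ac, Hist1h2ae, Hist2h2ac and Hist1h2ao had log2 fold changes of -0.04, -0.04, -0.10 and -0.16 and did not pass the test. Hist1h2ac was nevertheless lower in every IR library (25.2 to 25.7 FPKM) than in every Ctrl library (26.0 to 26.3 FPKM). Hist1h2ag and Hist1h2ah had log2 fold changes of 0.37 and 0.31, and Hist1h2ak and Hist1h2ai of 0.14 and 0.10. Hist1h2ab, Hist2h2aa1, Hist1h2ad and Hist2h2aa2 had log2 fold changes of 0.05, 0.06, -0.07 and -0.22. None of these 8 passed the test. Hist1h2af did not reach the expression filter, at 0.723 to 1.08 FPKM in IR and 0.444 to 1.301 FPKM in Ctrl. Hist1h2aa, the testis H2A gene, and Hist3h2a were listed at 0 throughout.

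Of the H2B genes, 4 were higher and 4 lower in IR among 15 tested, 26.7% each way, which is near the background of 25.8% higher and 28.9% lower. Hist1h2bl showed the largest rise, at 9.85, 9.73 and 9.70 FPKM in IR, against 5.81, 7.42 and 6.11 FPKM in Ctrl (log2 fold change 0.54, limma adjusted p = 0.000148). Hist1h2bh was at 7.04, 6.09 and 6.80 FPKM in IR, against 4.79, 5.65 and 4.91 FPKM in Ctrl (log2 fold change 0.32, limma adjusted p = 0.0027). Hist1h2bc, the H2B gene with the highest mean, was at 79.4, 84.0 and 77.4 FPKM in IR, against 70.1, 76.2 and 69.8 FPKM in Ctrl (log2 fold change 0.15, limma adjusted p = 0.00862). In these 3 genes every IR library was above every Ctrl library, though by a small margin in Hist1h2bc. Hist1h2bn was at 28.4, 30.9 and 22.6 FPKM in IR, against 22.9, 23.0 and 17.2 FPKM in Ctrl (log2 fold change 0.36, limma adjusted p = 0.0263), with 1 IR library inside the Ctrl range. Its call was lost without IR replicate 1, IR replicate 2 or Ctrl replicate 3.

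Lower in IR were Hist1h2bp, Hist1h2be, Hist2h2bb and Hist1h2bj. Hist1h2bp was at 2.26, 2.82 and 1.66 FPKM in IR, against 3.32, 4.11 and 3.71 FPKM in Ctrl (log2 fold change -0.55, limma adjusted p = 0.0027). Hist1h2be was at 2.27, 2.51 and 2.16 FPKM in IR, against 3.10, 3.26 and 3.07 FPKM in Ctrl (log2 fold change -0.32, limma adjusted p = 0.00129). All IR libraries of both genes were below all Ctrl libraries; Hist1h2bp rested on about 14.7 to 25.9 fragments in IR and 30.5 to 41.6 in Ctrl. Hist2h2bb was at 20.7, 26.9 and 21.2 FPKM in IR, against 27.3, 26.1 and 28.1 FPKM in Ctrl (log2 fold change -0.24, limma adjusted p = 0.0269). Hist1h2bj was at 28.4, 32.7 and 29.1 FPKM in IR, against 32.3, 39.0 and 33.3 FPKM in Ctrl (log2 fold change -0.21, limma adjusted p = 0.0284). Both overlapped by 1 library. The call of Hist2h2bb was lost without IR replicate 1, IR replicate 3, Ctrl replicate 1 or Ctrl replicate 3, and that of Hist1h2bj without IR replicate 1, IR replicate 3 or Ctrl replicate 2. Hist1h2bg, Hist1h2bb, Hist1h2bk, Hist1h2bm, Hist1h2bf, Hist2h2be and Hist3h2ba did not pass the test, with log2 fold changes between -0.34 for Hist1h2bf and 0.03 for Hist3h2ba. Hist1h2ba, the testis H2B gene, was at most 0.157 FPKM in IR and 0.313 FPKM in Ctrl, and Hist1h2bq and Hist1h2br were also under the filter.

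Of the H3 genes, 5 of 10 tested rose in IR (50%, background 25.8%) and none fell (background 28.9%). Hist1h3c was at 6.73, 6.34 and 7.11 FPKM in IR, against 4.09, 4.48 and 4.04 FPKM in Ctrl. All IR libraries were well above all Ctrl libraries, with means of 6.73 and 4.20 FPKM (log2 fold change 0.57, SE 0.0574, limma adjusted p = 2.38e-05) on about 59.1 to 67 fragments in IR and 36.7 to 46 in Ctrl. Hist1h3g was at 7.60, 6.74 and 5.66 FPKM in IR, against 3.16, 5.12 and 3.52 FPKM in Ctrl (log2 fold change 0.65, limma adjusted p = 0.0023). Hist1h3a was at 12.4, 12.7 and 13.6 FPKM in IR, against 11.5, 11.3 and 9.67 FPKM in Ctrl (log2 fold change 0.24, limma adjusted p = 0.00893). Neither overlapped between groups. Hist1h3i, the H3 gene with the highest mean, was at 21.5, 26.6 and 25.7 FPKM in IR, against 19.7, 20.5 and 21.5 FPKM in Ctrl (log2 fold change 0.24, limma adjusted p = 0.0129). Hist1h3f was at 4.91, 3.52 and 4.01 FPKM in IR, against 2.55, 3.54 and 2.99 FPKM in Ctrl (log2 fold change 0.35, limma adjusted p = 0.0182). In both genes the lowest IR library fell just under the highest Ctrl library. The call of Hist1h3i was lost without IR replicate 3, and that of Hist1h3f without IR replicate 1 or Ctrl replicate 1. Hist1h3b, Hist1h3d, Hist1h3e, Hist1h3h and Hist2h3b did not pass the test (log2 fold changes -0.17 to 0.05). Hist2h3c1 and Hist2h3c2 were under the filter, with Hist2h3c2 at 0.751 to 1.147 FPKM in IR and 0.214 to 0.947 FPKM in Ctrl.

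Of the H4 genes, 3 of 13 tested rose in IR (23.1%, near the background of 25.8%) and none fell (background 28.9%). The number of H4 genes called was 5 without IR replicate 3 or without Ctrl replicate 1. Hist1h4i was at 50.3, 55.7 and 58.8 FPKM in IR, against 38.4, 41.5 and 35.6 FPKM in Ctrl (log2 fold change 0.50, SE 0.0619, limma adjusted p = 9.07e-05). Hist1h4n was at 17.1, 18.3 and 16.2 FPKM in IR, against 8.501, 11.4 and 10.6 FPKM in Ctrl (log2 fold change 0.71, SE 0.0868, limma adjusted p = 8.45e-05). Hist1h4b was at 3.94, 5.71 and 5.11 FPKM in IR, against 3.01, 3.01 and 1.85 FPKM in Ctrl (log2 fold change 0.72, SE 0.141, limma adjusted p = 0.00171). The IR and Ctrl libraries of all 3 genes were apart. Mammalian H4 genes encode nearly always the same protein, so these genes differ mostly in their RNA. Hist1h4d, the most abundant histone gene of the 67 and 42.2% of the H4 sum, was at 97.6, 122 and 109 FPKM in IR, against 114, 116 and 127 FPKM in Ctrl. Its groups overlapped (log2 fold change -0.12, limma adjusted p = 0.163). Of the 2 H4 genes with the highest levels, Hist1h4i was past the threshold and Hist1h4d was not; the difference between them was not tested. Hist1h4f, Hist2h4 and Hist1h4h had log2 fold changes of 0.27, 0.26 and 0.25 and limma adjusted p-values of 0.0691, 0.0726 and 0.0655. Hist1h4k, Hist1h4c, Hist4h4, Hist1h4a, Hist1h4j and Hist1h4m did not pass the test either, with log2 fold changes between -0.19 and 0.16.

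**Figure D4:**
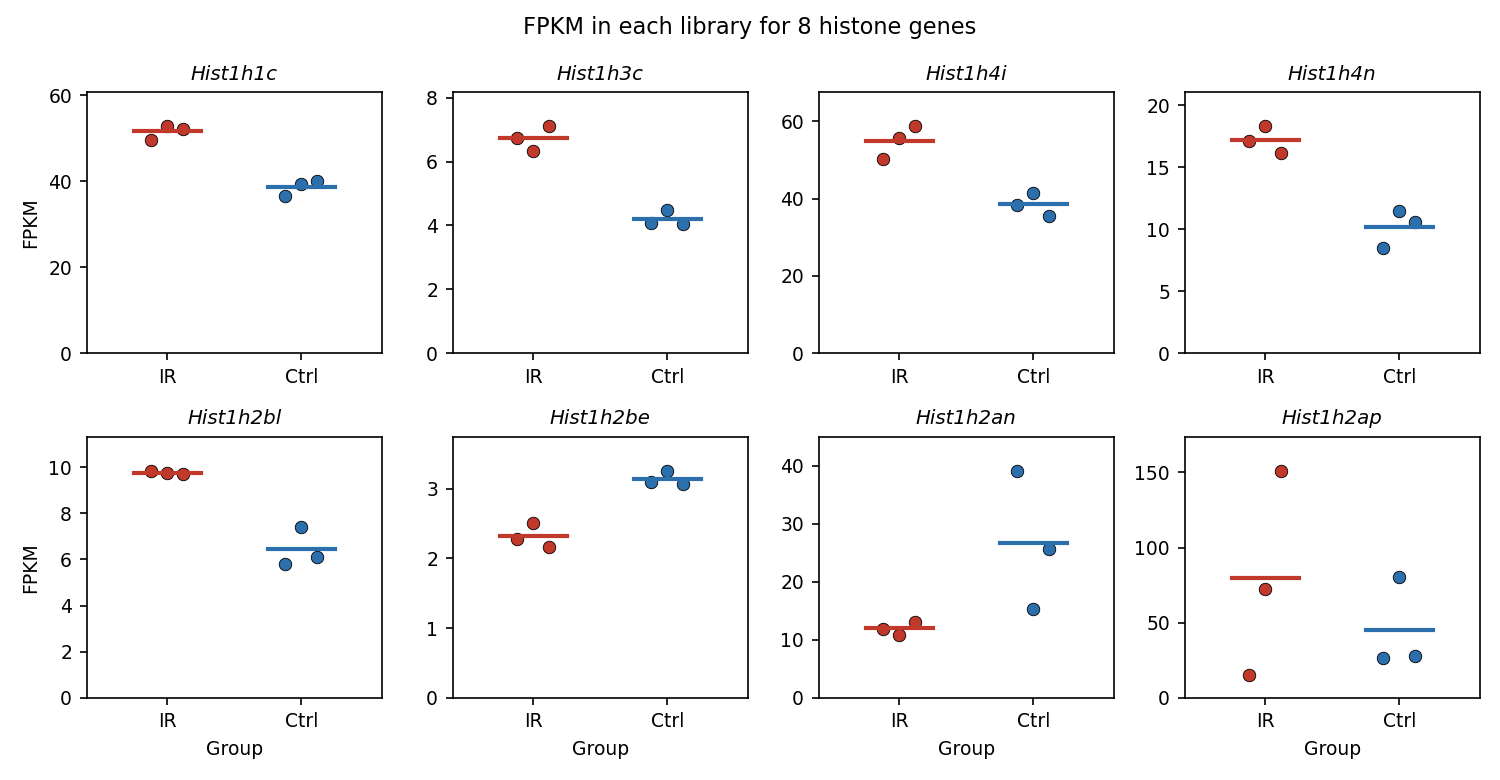
FPKM of 8 histone genes (y axis, from 0, its own scale in each panel) in each library, IR left of Ctrl, with points for libraries and lines for group means; the genes were chosen after their values were seen. Hist1h1c, Hist1h3c, Hist1h4i and Hist1h4n have every IR library above every Ctrl library, and Hist1h2ap spreads from 15.4 to 151 FPKM within IR.

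FPKM were also summed over near-identical copies. A group was built by linking genes when they shared at least 50% of the 100-base stretches of the shorter one, so 2 genes of a group may share less with each other and be joined through another. FPKM divides by transcript length, so such a sum still depends in part on how reads were shared among copies of unequal length. The pair Hist1h4m and Hist1h4n summed to 31.2, 28.3 and 30.3 FPKM in IR, against 20.7, 30.4 and 23.8 FPKM in Ctrl, and the groups overlapped although Hist1h4n alone was called. Hist1h4m itself had 14.1, 10.03 and 14.1 FPKM in IR, against 12.2, 19.0 and 13.2 FPKM in Ctrl. The 10 H2A copies that include Hist1h2an and Hist1h2ap summed to 211 ± 62.6 FPKM in IR and 191 ± 26.6 FPKM in Ctrl, again with overlap. Hist1h3b, Hist1h3d, Hist1h3h and Hist1h3i summed to 34.7 ± 5.44 FPKM in IR and 31.8 ± 3.84 FPKM in Ctrl and overlapped, although Hist1h3i alone was called. Over all single genes tested, the libraries of IR and Ctrl were apart in 61.7%. Of the 7 groups, 1 had libraries that were apart, the 5 H4 genes Hist1h4a, Hist1h4b, Hist1h4h, Hist1h4j and Hist1h4k. These were all linked through Hist1h4k, and their annotated transcripts ranged from 312 bases (Hist1h4k) to 774 bases (Hist1h4j). They summed to 28.4, 28.5 and 27.7 FPKM in IR, against 24.9, 20.3 and 24.2 FPKM in Ctrl, a ratio of 1.22 with all IR libraries above all Ctrl libraries. Among the 38 tested genes with at least 50% unique stretches, 13 rose (34.2%) and 4 fell (10.5%). Among the 20 others, 4 rose (20%) and 1 fell (5%). The background was 25.8% higher and 28.9% lower.

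H2A and H2B genes often lie head to head and share 1 promoter region. There were 12 such pairs, with starts 176 to 306 bases apart, and both genes were tested in 9. Both were called in 1 pair, Hist1h2an and Hist1h2bp, which were both lower in IR. In 4 pairs 1 gene was called and its partner was not: Hist1h2bc rose beside Hist1h2ac, Hist1h2bn beside Hist1h2ak and Hist1h2bl beside Hist1h2ai, and Hist1h2bj fell beside Hist1h2ag. In the other 4 neither was called. Over all genes tested, 54.7% were called, so pairs with both genes called can occur without a shared cause. Hist1h2an was 16.7% unique, and whether paired genes change together was not tested.

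Promoters are shown for Hist1h1c, Hist1h3c and Hist1h4i, each the called gene with the smallest p-value of its class in H1 and H3 and the most abundant called gene in H4. Each is the 250 bases before the RefSeq start on GRCm38.p6, in the direction of transcription. Capitals mark matches on the strand shown to any motif searched. These were CCAAT, the core bound by NF-Y, and TATAAA, the letters of the TATA box. The others were AAACACA, a motif known from H1 promoters, and ATTTGCAT, the octamer bound by Oct1. Matches were taken at any place in the 250 bases, so a TATAAA match need not be a TATA box. In Hist1h4i it lies near the middle of the stretch.
Hist1h1c, chr13:23738557-23738806, plus strand: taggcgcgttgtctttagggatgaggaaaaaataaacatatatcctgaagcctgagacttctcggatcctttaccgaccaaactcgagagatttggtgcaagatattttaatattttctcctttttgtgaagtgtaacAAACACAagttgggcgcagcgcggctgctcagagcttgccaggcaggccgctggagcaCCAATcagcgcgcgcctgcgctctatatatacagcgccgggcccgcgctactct
Hist1h3c, chr13:23745522-23745771, minus strand: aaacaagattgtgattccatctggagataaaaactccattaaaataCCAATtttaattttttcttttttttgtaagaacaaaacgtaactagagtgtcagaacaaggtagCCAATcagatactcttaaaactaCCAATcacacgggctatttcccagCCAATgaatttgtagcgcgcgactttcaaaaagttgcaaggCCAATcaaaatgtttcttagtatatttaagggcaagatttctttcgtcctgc
Hist1h4i, chr13:22041363-22041612, minus strand: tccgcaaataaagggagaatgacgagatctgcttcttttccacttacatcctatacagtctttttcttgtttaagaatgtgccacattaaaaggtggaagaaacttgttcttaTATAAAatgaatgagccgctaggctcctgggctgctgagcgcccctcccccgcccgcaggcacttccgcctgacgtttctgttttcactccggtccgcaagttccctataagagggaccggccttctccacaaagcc

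The motifs followed the classes. Promoters were matched for 62 of the 67 genes, 63 promoters in all, and searched on both strands. CCAAT was in 82.5% of them, against 33.8% of all 32851 mouse promoters of the same length: in every H1, H2A and H2B promoter, in 80% of H3 and in 25% of H4 promoters. TATAAA, at any place and on either strand, was in 46% of the histone promoters and 12.4% of all promoters. The octamer ATTTGCAT was in 38.9% of H2A and 41.2% of H2B promoters, in none of the H1, H3 and H4 promoters, and in 1.6% of all promoters. AAACACA was in 83.3% of H1 promoters and 6.25% of all promoters. No motif searched is contained in another. A match is a description of the letters and not of binding.

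In each of 3 lists of genes that make and handle histone mRNA and protein, more genes rose than fell, while the share called in either direction (53.8% to 57.1%) was near the background of 54.7%. Of 16 genes of histone gene transcription, 7 rose (43.8%, background 25.8%) and 2 fell (12.5%, background 28.9%), with a median log2 fold change of 0.12. Npat, which activates the clustered genes at S phase entry, was at 8.11, 8.08 and 8.14 FPKM in IR, against 5.86, 6.40 and 6.58 FPKM in Ctrl (log2 fold change 0.32, limma adjusted p = 0.000386). E2f4, Yy1 and E2f1 had log2 fold changes of 0.18, 0.22 and 0.21, all past the threshold. Of 26 genes of histone mRNA 3′ end processing and turnover, 12 rose (46.2%) and 2 fell (7.69%), with a median of 0.09. Ncbp2 and Ncbp1, the nuclear cap-binding proteins, had log2 fold changes of 0.49 and 0.42, Srrt (ARS2), which works with them, 0.43, and Eri1, an exonuclease that binds the histone stem-loop, 0.28. Ncbp2 was at 53.2, 53.2 and 55.5 FPKM in IR, against 37.5, 39.3 and 37.9 FPKM in Ctrl, with no overlap (limma adjusted p = 1.36e-06). Slbp, the stem-loop binding protein itself, named here after its values were seen, was at 182 to 191 FPKM in IR and 185 to 189 FPKM in Ctrl and did not pass the test (limma adjusted p = 0.908).

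Of 28 tested histone chaperone genes, 12 rose (42.9%, background 25.8%) and 4 fell (14.3%, background 28.9%), with a median of 0.07. Asf1b, a chaperone of H3 and H4 in dividing cells, was at 110, 103 and 108 FPKM in IR, against 84.3, 83.1 and 79.7 FPKM in Ctrl, with no overlap (log2 fold change 0.37, limma adjusted p = 8.12e-06). Ipo4, which imports histones into the nucleus, had a log2 fold change of 0.37, Chaf1a, a subunit of the CAF-1 complex, 0.27, and Anp32b 0.20. Among the 4 that fell were Chaf1b, also of CAF-1, and Asf1a, with log2 fold changes of -0.22 and -0.29. Both are named here after their values were seen. Of 11 tested histone variant genes outside the clusters, 2 rose (18.2%) and 3 fell (27.3%), with a median of -0.04. These shares were near the background of 25.8% higher and 28.9% lower. H2afz, which encodes H2A.Z, rose (log2 fold change 0.14), and H2afy (macroH2A), Cenpa (the centromeric H3) and H2afv fell, with log2 fold changes of -0.32, -0.33 and -0.19. Of these 4, H2afz was the most abundant, at 1208 ± 14.9 FPKM in IR and 1099 ± 10.5 FPKM in Ctrl, a level close to the sum over all 67 clustered genes in this poly(A)-selected RNA.

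Genes of DNA replication mostly rose in IR. Of the G2 and mitosis genes, 47.4% were called in either direction, against a background of 54.7%. Of 30 S phase genes, 18 rose (60%) and 3 fell (10%), against the background of 25.8% higher and 28.9% lower, with a median of 0.16. Mcm2, Mcm3 and Mcm5, subunits of the replicative helicase, had log2 fold changes of 0.25, 0.21 and 0.22, and Pola1, the catalytic subunit of DNA polymerase alpha, 0.37. Named after their values were seen, Mcm4 and Mcm6 also rose (0.16 and 0.18), and Mcm7 did not pass the test (-0.01). Mcm2 was at 162, 165 and 163 FPKM in IR, against 136, 136 and 138 FPKM in Ctrl (limma adjusted p = 6.84e-06). Of 19 genes of G2 and mitosis, 3 rose (15.8%, background 25.8%) and 6 fell (31.6%, near the background of 28.9%), with a median of -0.03. Cdc20 and Ccnb2 fell, with log2 fold changes of -0.18 and -0.17, and Bub1 and Top2a rose, with 0.22 and 0.12. The summed FPKM of the S phase list was 3094 to 3136 in IR and 2872 to 2879 in Ctrl, and that of the G2 and mitosis list 1220 to 1232 in IR and 1255 to 1271 in Ctrl. Neither sum overlapped between groups.

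**Figure D5:**
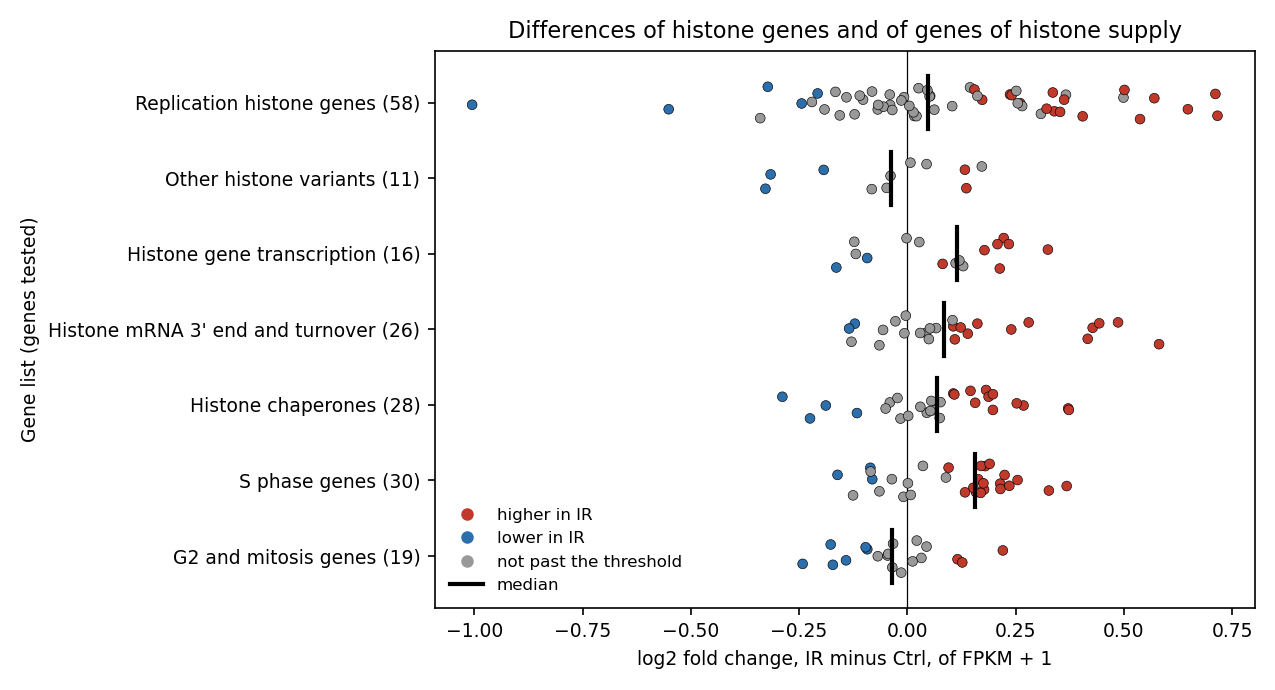
Log2 fold change of FPKM + 1, IR minus Ctrl (x axis), of each tested gene, 1 point a gene, for the clustered histone genes and 6 lists of related genes (rows). Black bars are medians, red genes were higher in IR and blue genes lower: the histone genes span -1.005 to 0.72 with a median of 0.05, and the S phase genes have the highest median, 0.16.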

How the data were processed

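Gene-level FPKM for 6 libraries were deposited by the authors, 1 value a symbol with no unit named; FPKM was taken from the range of values and from StringTie being among the tools. Per the submitters' processing notes, fastp, HISAT2 and StringTie were used with GRCm38 (mm10). Versions, annotation and the handling of reads that fit several genes are not stated there. Per the labels' protocols, the stranded library kit selects poly(A) RNA. Entries with a date in place of a symbol (27 of 21878) were left out.

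The expression filter was 1 FPKM or more in 3 or more libraries. The test was limma 3.58.1 in R 4.3.3 (empirical Bayes with a mean-variance trend) on log2(FPKM + 1), checked on simulated data. Class sums were not tested. Sequences came from GENCODE M21 transcripts and RefSeq promoters (GRCm38.p6). Tested histone genes are all named. Of each related list, the 4 genes with the smallest p are named, and any others are marked as named after their values were seen. Depth was estimated from 24.8% to 28.6% of low values, those within 0.01 of a whole multiple of a step, too few to recover reads. The genes, lists and tests were chosen with earlier results of these data known.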

Additional observations from a re-analysis of the deposited data

How the results depend on the processing

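Of the 22 histone genes called, 15 were called in every one of the 14 alternatives that tested them. These were a replicate block, 2 scalings, 2 pseudocounts, 2 filters, no mean-variance trend and each library left out. The other 7 lost the call in at least 1: Hist1h1b, Hist2h2ab, Hist1h2bn, Hist2h2bb, Hist1h2bj, Hist1h3i and Hist1h3f. No histone gene called in the reported fit changed sign under any of the alternatives. The count of histone genes lower in IR, 5 as reported, was 3 with no filter on low values, 3 with a mean of at least 5 FPKM, which tests fewer genes, and 3 with no mean-variance trend; the cause was not tested for the other settings. Leaving out 1 library at a time gave 3 to 7 lower (3 without IR replicate 3), 15 to 20 higher and 19 to 24 called in all. The H2B genes called, 8 as reported, were 5 with no filter and with no mean-variance trend, and the H2A genes called were 1 with no filter and with a mean of at least 5 FPKM. Upper quartile and median scaling gave 22 and 23 calls.

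The libraries carry replicate numbers that IR and Ctrl share, but same-numbered libraries did not deviate together: the correlations of their deviations from the group means were 0.0264, -0.00994 and -0.0328. The fit with a replicate block called 21 histone genes higher and 6 lower, 27 in all (5 H2A and 5 H4 genes, against 2 and 3 as reported), and 5379 genes over the table against 5622. The libraries share only a number, and no pairing follows from it. Depth limits the genes at few fragments: Hist1h4b rested on about 24.7 to 33.6 fragments in IR and 10.6 to 19.4 in Ctrl, and the 9 genes under the filter were not tested.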
